A study of Mus musculus with 6 samples.

Results

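The 10 genes described here belong to the skeletal muscle sarcomere and were followed through kidney and ureter libraries of newborn mice that carried or lacked an intact Ahnak gene. They were the 10 rows, of 24532 genes in the deposited table, whose symbols were Acta1, Ckm, Myh3, Myh8, Myl1, Tnnt3, Tnni2, Neb, Actn3 and Myoz1. These genes were chosen by their lower values in the ureter library labelled Ahnak KO than in WT ureter, so the ureter values below are a description without a test. Bulk RNA-seq was made from kidneys and ureters taken at postnatal day 1 (PN1), and the methods of the study give 2 to 4 kidneys or ureters as the material. Kidney was represented by 2 WT and 2 Ahnak KO libraries, and ureter by 1 library of each genotype. The KO mice had exon 5 of Ahnak disrupted, and their strain was not given in the sources used here. The study names 2 biological replicates in its methods, and the labels tie no library to an animal, so p-values measure the spread between these libraries.

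Estimated counts summed to between 55744703 and 66095616 in the kidney libraries, to 54985927 in WT ureter and to 36410246 in the ureter library labelled KO. The ribosomal RNA gene Rn45s took 8.06% of the counts of the latter library and 0.626% of WT ureter. Ahnak itself had 8414 and 7744 counts in KO kidney, 13058 and 11545 in WT kidney, 18895 in KO ureter and 37439 in WT ureter. In the kidney the KO libraries were below both WT libraries, with a log2 fold change of -0.47 (SE 0.0961). In edgeR's quasi-likelihood test the unadjusted p was 0.0027 and the adjusted p, over all genes, was 0.9999. In the ureter, the log2 ratio of KO over WT was -0.19 after TMM scaling and 0.18 from the deposited TPM. TPM is a level scaled to transcript length and depth. These values cover the whole gene, and the disrupted exon was not tested on its own. The whole-gene level of Ahnak thus did not separate the ureter libraries, and the cause was not tested. The name "ureter library labelled KO" is therefore used. The ureter label itself was borne out by tissue markers, since 16 of 16 smooth muscle genes and 12 of 12 urothelial genes were called higher in ureter than in kidney by edgeR, and 12 of 12 kidney tubule and podocyte genes lower.

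The sarcomere is the contractile unit of striated muscle, in which thick filaments of myosin slide along thin filaments of actin between the Z-discs. Calcium acts through the troponins on the thin filament, and myosin heavy chains form the motors. Embryonic (Myh3) and perinatal (Myh8) heavy chains are made in developing muscle and give way to the adult fast chains Myh1, Myh2 and Myh4, while Myh7 is the slow chain that heart muscle also uses. The ureter wall is normally moved by smooth muscle, which has no sarcomeres.

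The promoters of 5 of the 10 genes were in the RefSeq table for GRCm38.p6. Those of 4 are shown because they belong to the genes with the highest level in WT ureter and to both developmental myosins. The table had no entry for Tnnt3, Tnni2, Neb, Actn3 or Myoz1. Each sequence is the 250 bases before the start of the gene, read 5′ to 3′ on the gene's strand. The start is that of the RefSeq table, and for Ckm it lies inside the gene's GENCODE span given further on, which begins upstream of it. Capitals mark matches to the E-box (CANNTG, the motif of the MyoD family), the CArG box (the motif of serum response factor) and the MEF2 motif, searched on both strands.
Acta1, chr8:123894776-123895025, minus strand: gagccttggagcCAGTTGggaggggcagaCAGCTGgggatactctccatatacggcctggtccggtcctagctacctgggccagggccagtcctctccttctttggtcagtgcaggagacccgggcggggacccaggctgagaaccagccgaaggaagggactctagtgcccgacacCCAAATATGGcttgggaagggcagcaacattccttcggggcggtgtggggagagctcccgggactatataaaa
Ckm, chr7:19410844-19411093, plus strand: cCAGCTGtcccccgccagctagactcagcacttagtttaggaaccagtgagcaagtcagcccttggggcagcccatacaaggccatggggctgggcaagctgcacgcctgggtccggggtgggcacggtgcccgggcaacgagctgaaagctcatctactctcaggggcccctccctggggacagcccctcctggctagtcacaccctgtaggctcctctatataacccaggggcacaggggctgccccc
Myh3, chr11:67078050-67078299, plus strand: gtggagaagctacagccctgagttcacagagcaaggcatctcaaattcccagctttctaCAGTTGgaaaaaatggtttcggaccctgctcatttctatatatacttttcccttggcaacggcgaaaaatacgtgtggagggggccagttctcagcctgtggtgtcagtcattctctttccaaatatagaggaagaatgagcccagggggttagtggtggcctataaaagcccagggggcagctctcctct
Myh8, chr11:67276874-67277123, plus strand: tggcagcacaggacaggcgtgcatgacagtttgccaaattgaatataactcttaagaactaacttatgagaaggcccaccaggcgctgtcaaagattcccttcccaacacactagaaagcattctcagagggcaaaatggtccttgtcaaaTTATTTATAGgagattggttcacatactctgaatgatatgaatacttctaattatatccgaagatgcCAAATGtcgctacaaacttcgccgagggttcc
An E-box was found 2 times in the Acta1 promoter and 1 time in each of the others, and 66.2% of all 32851 promoters of this length held one. The Acta1 promoter held the CArG box, which 1.47% of all promoters held. The Myh8 promoter held the MEF2 motif, which 2.92% of all promoters held and which overlapped a TATAAA motif there. The motif TATAAA, which is not capitalised and was searched on both strands, was present in Acta1, Myh3 and Myh8 and in 12.4% of all promoters. In Myh8 it lay on the opposite strand, as TTTATA, 96 bases before the start. The Myl1 promoter, not printed, held 1 E-box, 1 TATAAA motif and neither of the other capitalised motifs. These matches describe letters in the windows and do not show binding.

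Thin filament genes were highest in WT ureter. Acta1, the skeletal muscle alpha-actin, lies at chr8:123891769-123894751 (GRCm38) and had 30 and 12 counts in KO kidney, 4 and 70 in WT kidney, 740 in the ureter library labelled KO and 3166 in WT ureter. In TPM these were 0.663 and 0.264, 0.0768 and 1.67, 25.7 and 72.5. Both ureter libraries were far above all 4 kidney libraries, and WT ureter was 2.47-fold above the other ureter library, with a 95% interval of 2.28 to 2.68 (exact binomial, counting error only, as for all ureter intervals).

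The 2 fast troponin genes of the list were lower in the ureter library labelled KO, by smaller factors. Tnni2, the inhibitory subunit of fast troponin (chr7:142441808-142444410), had 33 and 69 counts in KO kidney, 64 and 60 in WT kidney, 400 in the ureter library labelled KO and 1407 in WT ureter, a difference between the ureter libraries of 2.03-fold (1.82 to 2.27). Tnnt3, the fast tropomyosin-binding subunit (chr7:142498836-142516009), had 341 and 251 counts in KO kidney, 335 and 244 in WT kidney, 202 in the ureter library labelled KO and 691 in WT ureter, a ureter difference of 1.97-fold (1.69 to 2.32). Tnnt3 was thus well above 0 in kidney, where its TPM of 8.14 to 11.2 enclosed the 9.57 of the ureter library labelled KO.

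Neb encodes nebulin, a giant protein that runs along the thin filament (chr2:52136647-52378474). It had 38 and 61 counts in KO kidney, 67 and 39 in WT kidney, 12 in the ureter library labelled KO and 168 in WT ureter, an 8.08-fold difference between the ureter libraries (4.51 to 16.0). Only WT ureter exceeded the kidney libraries, and the other ureter library was below all of them. At 0.253 TPM in WT ureter, nebulin was far below Acta1 at 72.5 TPM on the same length-corrected scale.

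Among the thick filament genes, the developmental heavy chains were few in counts, and Myh8 differed most between the ureter libraries. Myh3 (chr11:67078300-67102291) had 8 and 0 counts in KO kidney, 9 and 14 in WT kidney, 19 in the ureter library labelled KO and 214 in WT ureter, a 6.50-fold difference in ureter (4.06 to 11.01). Myh8 (chr11:67277124-67308634) had 0 and 2 counts in KO kidney, 0 and 25 in WT kidney, 10 in the ureter library labelled KO and 366 in WT ureter, a 21.1-fold difference (11.4 to 44.4). The 25 counts of Myh8 in WT kidney 2 exceeded the 10 counts of the ureter library labelled KO. Myl1, a fast myosin light chain (chr1:66924295-66945404), had 31 and 18 counts in KO kidney, 22 and 36 in WT kidney, 28 in the ureter library labelled KO and 428 in WT ureter, an 8.82-fold difference (6.02 to 13.4).

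Both Z-disc genes were also expressed in kidney. Actn3, the fast-fibre alpha-actinin (chr19:4861216-4877909), had 446 and 570 counts in KO kidney, 415 and 549 in WT kidney, 384 in the ureter library labelled KO and 797 in WT ureter, and its ureter libraries differed by 1.20-fold (1.06 to 1.36). Myoz1, which binds calcineurin and alpha-actinin at the Z-disc (chr14:20649107-20656540), had 70 and 128 counts in KO kidney, 184 and 90 in WT kidney, 0 in the ureter library labelled KO and 85 in WT ureter. It was at least 16.4-fold lower in the ureter library labelled KO, computed against 3 counts in that library, and in WT ureter it lay within the kidney libraries. An entry of 0 is an estimate, and of 456 genes with 70 to 100 counts in WT ureter, 31 (6.80%) were also listed at 0 in the ureter library labelled KO.

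Ckm, the muscle creatine kinase that regenerates ATP, was the gene with the highest level in ureter. Ckm (chr7:19404776-19422841) had 19 and 26 counts in KO kidney, 7 and 7 in WT kidney, 2248 in the ureter library labelled KO and 4556 in WT ureter. In TPM the ureter libraries held 81.7 and 109, and the kidney libraries 0.128 to 0.641. The ureter libraries differed by only 1.17-fold (1.11 to 1.23), the smallest ureter difference of the 10 genes.

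**Figure D1:**
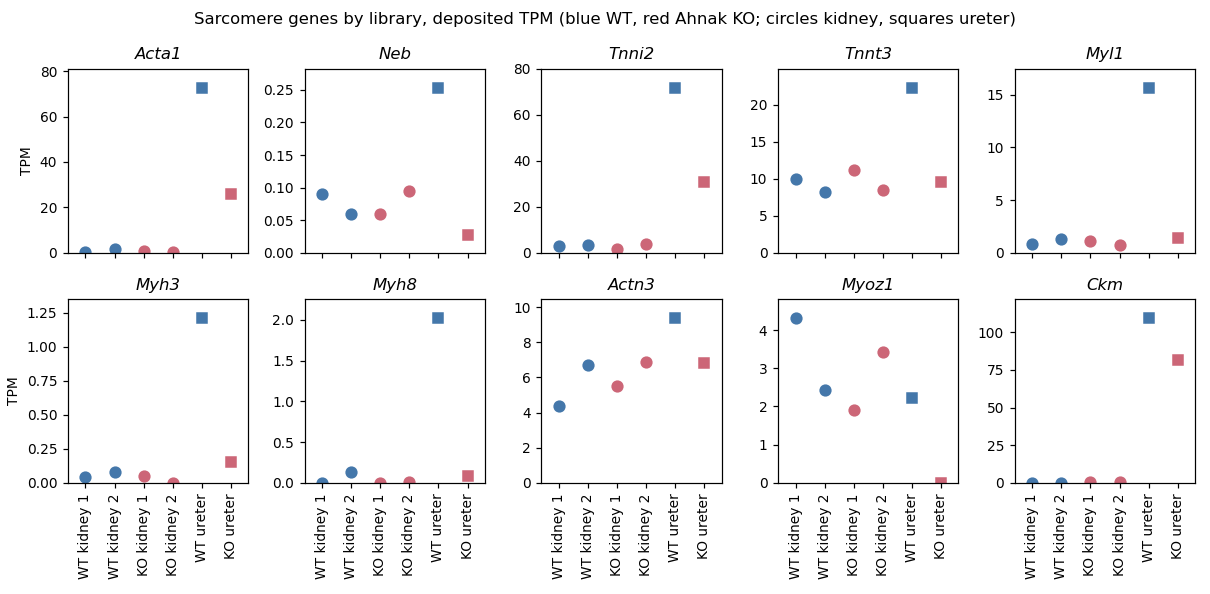
Deposited TPM (vertical axis, linear and from 0, with a scale of its own in each panel) of each of the 10 genes in the 6 libraries (horizontal axis), 1 point per library, blue for WT, red for the libraries labelled Ahnak KO, circles for kidney and squares for ureter. WT ureter is the highest library for every gene except Myoz1, and Ckm, Acta1 and Tnni2 reach 109, 72.5 and 71.5 TPM there.

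Between the ureter libraries, all 10 genes were lower in the one labelled KO, and 6 of 10 were over 2-fold lower on the log2(CPM + 0.5) scale, where CPM is the count scaled to depth, after TMM scaling, which adjusts for differences in composition. Over all 16117 genes with at least 10 counts in either ureter library, 51.3% were lower and 5.75% were over 2-fold lower. The genes were picked for this contrast, and nothing is read from these counts. The median log2 ratio of the 10 genes was -1.62, also -1.62 with Myoz1 at its bound, and that of all genes was -0.016. On this scale Myh8 was at -3.08, Myl1 at -2.55, Neb at -1.97, Myh3 at -1.96, Myoz1 at -1.96 and Acta1 at -1.28, and Tnni2 at -0.99, Tnnt3 at -0.93, Actn3 at -0.25 and Ckm at -0.22 were under 2-fold. The added 0.5 CPM makes the ratios of low genes smaller than the folds given above, which have no constant, and it alone puts Tnni2, at 2.03-fold, under 2-fold. With 0.1 CPM in its place, Myoz1 stood at -3.95 beside Myh8 at -4.002, and Myl1 at -2.996. Scaling by library size alone gave a median of -0.20 over all genes and placed Tnni2 and Tnnt3 past 2-fold, for 8 of 10. With 1 library per genotype there is no estimate of the spread between ureters, and in bulk tissue fewer cells of a type and less RNA per cell cannot be told apart.

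**Figure D2:**
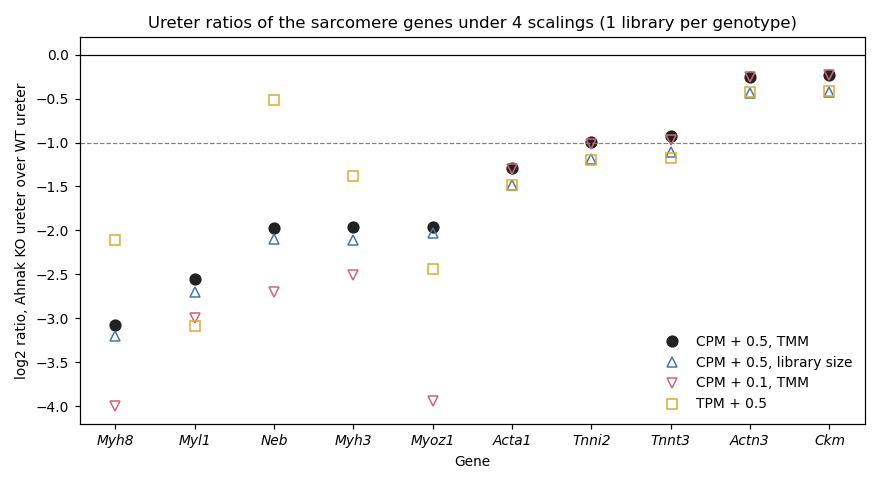
Log2 ratio of the ureter library labelled Ahnak KO over WT ureter (vertical axis) for each gene (horizontal axis), with 1 symbol for each of 4 scalings, a solid line at 0 and a dashed line at a 2-fold decrease. Every symbol lies below 0, the symbols of Ckm and Actn3 lie closest to it, and Neb moves from -1.97 on CPM to -0.51 on TPM.

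Within the kidney the genotypes could be tested, and none of the 10 genes was called. Of the 8 genes with enough counts, edgeR's quasi-likelihood test called 0 at the adjusted threshold of 0.05, 0 passed 0.05 before adjustment, and DESeq2 called 0. Over all 16481 genes tested, 0.0121% were called lower in KO kidney and 0% higher, and 227 had an unadjusted edgeR p under 0.05. The adjusted p of each of the 8 was 0.9999. The log2 fold changes of KO over WT were 1.80 (SE 0.863) for Ckm, 0.20 (SE 0.284) for Actn3, 0.18 (SE 0.276) for Tnnt3, 0.068 (SE 0.599) for Neb, -0.14 (SE 0.780) for Myl1, -0.14 (SE 0.604) for Tnni2, -0.29 (SE 0.4997) for Myoz1 and -0.78 (SE 1.30) for Acta1. Myh3 and Myh8 had too few counts to be tested.

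In 9 of 10 genes the kidney genotypes overlapped. Ckm was the exception, with both KO kidneys above both WT kidneys, at counts of 19 and 26 against 7 and 7 and an unadjusted p of 0.0801. Over all genes tested, 12.8% had both KO kidneys above both WT kidneys and 13.5% had both below. The precision differed between the genes, since Tnnt3 and Actn3 had 244 to 570 counts per kidney library and Acta1, Ckm and Myl1 had 4 to 70. Leaving out WT kidney 2, which held 70 of the Acta1 counts, turned its log2 fold change from -0.78 to 2.59.

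Between the tissues, WT ureter was above all 4 kidney libraries in 9 of 10 genes, and 36.6% of all genes tested had this order. In CPM, the ureter library labelled KO was above all kidney libraries in 7 genes, within them for Myh8 and below them for Myoz1 and Neb, while 28.2% of all genes had both ureter libraries above all kidney libraries. In TPM it was above them in 5 genes, since Tnnt3 and Actn3 then lay within the kidney libraries. The share over all genes was not computed for this library alone, nor in TPM. Relative to the mean of the kidney libraries in CPM, WT ureter was 367-fold higher for Ckm and 129-fold higher for Acta1, at kidney means of 0.241 ± 0.164 and 0.476 ± 0.484 CPM (SD, n = 4 libraries of both genotypes). The factor was 64.1 for Myh8, 34.1 for Myh3, 30.4 for Tnni2, 19.4 for Myl1, 4.03 for Neb, 2.89 for Tnnt3, 1.95 for Actn3 and 0.896 for Myoz1. For the ureter library labelled KO it was 313 for Ckm and 52.3 for Acta1 and 15.0 for Tnni2, and 1.46 to 5.23 for Tnnt3, Actn3, Myl1, Myh8 and Myh3. The kidney levels of Tnnt3, Actn3, Myoz1 and Neb were thus nearest to those of WT ureter, although Neb was low in both. These tissue values are a description, since the ureter libraries were used to choose the genes.

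The developmental and mature myosin heavy chains were compared within each library. WT ureter had 214 counts of Myh3, 366 of Myh8 and 426 of Myh7, and the ureter library labelled KO had 19, 10 and 94. The adult fast chains Myh1, Myh2 and Myh4 were at 0 in both, which allows a share of up to 0.298% of these chains in WT ureter and 2.44% in the other library. Myh3 and Myh8 together made up 580 of 1006 counts, 57.7% (54.6 to 60.7, Wilson 95% interval), in WT ureter and 29 of 123, 23.6% (16.9 to 31.8), in the ureter library labelled KO. From FPKM, which divides by length, the shares were 57.5% and 23.1%.

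Without Myh7, both ureter libraries held 100% developmental chains. This value follows from the adult fast chains being at 0, so the share compares the developmental chains with Myh7 alone. Myh7 had a log2 ratio of -1.24 and Myh6, the atrial heavy chain, 0.18, with 1370 counts in the ureter library labelled KO and 2090 in WT ureter. With Myh6 in the total, it made up 91.8% (90.3 to 93.1) of the chains in the ureter library labelled KO and 67.5% (65.8 to 69.1) in WT ureter. Within the developmental pair, Myh8 was 63.1% (59.1 to 66.9) in WT ureter and 34.5% (19.9 to 52.7) of 29 counts in the other library. In kidney the developmental share ran from 6.67% of 30 counts to 50.6% of 77 counts, and WT kidney 2 was the only library with counts of an adult fast chain, 6 of Myh1.

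**Figure D3:**
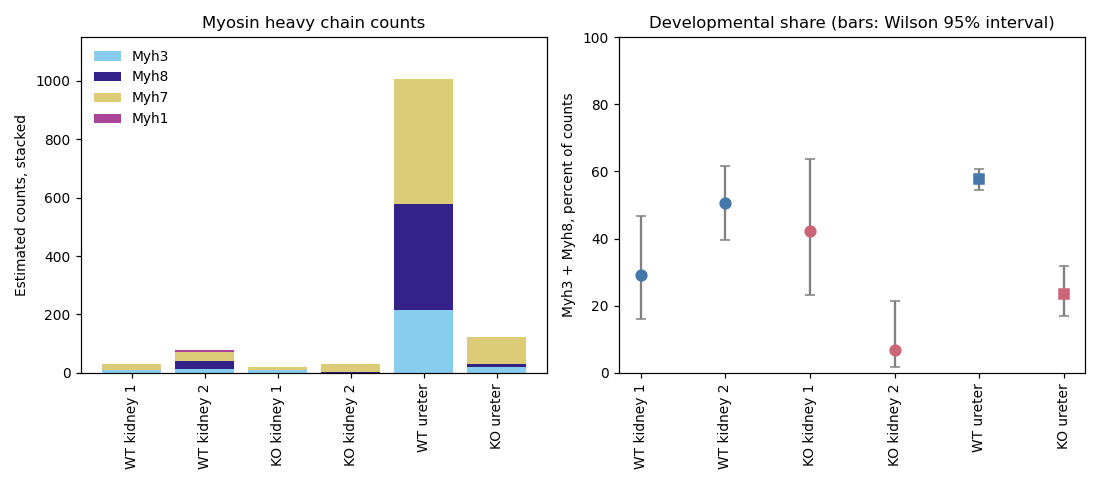
Left, estimated counts (vertical axis, from 0) of Myh3, Myh8, Myh7 and Myh1, stacked, in each library (horizontal axis). Right, the percent of Myh3 and Myh8 among Myh1, Myh2, Myh3, Myh4, Myh7 and Myh8 in each library, with Wilson 95% intervals that cover counting error only, blue for WT, red for the libraries labelled Ahnak KO, circles for kidney and squares for ureter. WT ureter holds 1006 counts and stands at 57.7%, and the ureter library labelled KO holds 123 and stands at 23.6%.

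Heavy chain genes share long stretches of sequence, which bears on how reads can be split among them. Of the 6100 windows of 50 bases in the Myh8 transcript, 21.4% also occurred exactly in another transcript, mostly Myh2, Myh1 and Myh4, and with 100 bases 6.61% did. For Myh3 the shares were 4.81% and 1.15%. The longest coding run of Myh8 shared exactly with Myh4 was 164 bases, at coding positions 2950 to 3113, and is shown because a read from it fits both genes.
Myh8 and Myh4, shared run: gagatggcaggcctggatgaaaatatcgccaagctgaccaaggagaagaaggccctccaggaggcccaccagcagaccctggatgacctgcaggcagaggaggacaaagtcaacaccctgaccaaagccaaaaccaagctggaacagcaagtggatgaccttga
The corresponding run with Myh3 was 77 bases. Since Myh1, Myh2 and Myh4 were at 0 in the ureter libraries, no counts were assigned to an adult fast chain there, and how reads from the shared stretches were assigned was not tested. Myl1 shared 32.1% of its windows of 50 bases with the pseudogene Mylf-ps, so its counts are uncertain. Acta1 shared 2.22% with other actin sequences, Actn3 0.0705%, and Ckm, Tnnt3, Tnni2, Neb and Myoz1 none. Of the genes overlapping on the opposite strand, A930016O22Rik at Ckm had 0 to 7 counts and Prr33 at Tnnt3 0 to 17 in any library. Gm20388 overlaps Acta1, and 3 genes overlap Neb.

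The other skeletal muscle genes that could be compared were mostly lower in the ureter library labelled KO. The lists of thin filament, thick filament, Z-disc, calcium release, neuromuscular junction, metabolism, myosin and myogenic genes held 95 genes. Of these, 33 were at 0 in both ureter libraries, as were 7610 of all 24532 genes, a similar share. Among the 60 that could be compared, 47 were lower and 13 higher in the ureter library labelled KO, where 51.3% of all genes were lower. Over 2-fold, 13 were lower and 1, Dok7, was higher, against 5.75% and 4.50% of all genes, and the median log2 ratio was -0.52. With the 14 genes at 0 in 1 library placed at their bound, the median was -0.52 and 20 were over 2-fold lower, and a pseudocount of 0.1 in place of 0.5 gave 23. Mylpf, a fast regulatory light chain, had 473 counts in WT ureter and 39 in the ureter library labelled KO, a log2 ratio of -2.37, and Ttn, the giant titin, had 137 and 4. Mybpc1 had 183 counts in WT ureter and 0 in the other library, and Pgam2 168 and 0. Of 421 genes with 150 to 200 counts in WT ureter, 5 (1.19%) were at 0 in the ureter library labelled KO. Both genes were higher in every kidney library than in WT ureter, Mybpc1 at 3.82 to 5.54 against 3.55 CPM and Pgam2 at 10.2 to 15.7 against 3.26. In kidney, 61 of the 95 were tested and 0 were called by edgeR. Its unadjusted p was under 0.05 for 227 of all 16481 genes tested and for 1 of the 61. That gene was Myh6, the atrial heavy chain, which stood in the myosin list and also in the cardiac list below. It was among the 13 genes higher in the ureter library labelled KO. Without Myh6, 94 genes were listed, 59 were compared and the median log2 ratio was -0.53.

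In the edgeR test of ureter against kidney, with 63 of the 95 tested, 16 were higher in ureter, 19 were lower and 28 were not called. Over all 16873 genes tested, 21.4% were called higher and 23.7% lower. Those higher included Tnnc2, the fast troponin C, at a log2 fold change of 4.88 (SE 0.961, edgeR adjusted p = 0.0078), the Z-disc gene Ldb3 at 4.18 (SE 0.357), the M-band gene Myom1 at 3.03 (SE 0.178), the calcium store gene Casq1 at 3.16 (SE 0.216) and the respiratory chain gene Cox8b at 6.99 (SE 1.23). The 16 also held Pdlim3 at 3.89 (SE 0.103), Flnc at 1.55 (SE 0.153) and Tpm3 at 0.94 (SE 0.0837). Tpm3 had 12538 to 14565 counts in the kidney libraries as well. Tnnt1, the slow troponin T, was among the 16 at 2.61 (SE 0.198), with 3111 counts in WT ureter and 1234 in the ureter library labelled KO. Tnni1, the slow troponin I, was among the 19 lower at -4.21 (SE 0.890), with 20 and 0. The heavy chains Myh6, at 7.73 (SE 0.705), and Myh7, at 3.83 (SE 0.526), were also among the 16. The count of 16 is thus not particular to skeletal muscle. The neuromuscular junction list, which holds the genes of the nerve contact, had 0 of 7 higher and 6 lower. Excitation-contraction coupling genes, which couple the membrane signal to calcium release, had 3 higher and 5 lower of 14, and muscle energy genes 2 higher and 0 lower of 10. Thin filament genes had 4 higher and 2 lower of 9, Z-disc genes 4 and 1 of 7, and thick filament genes 1 and 3 of 12.

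**Figure D4:**
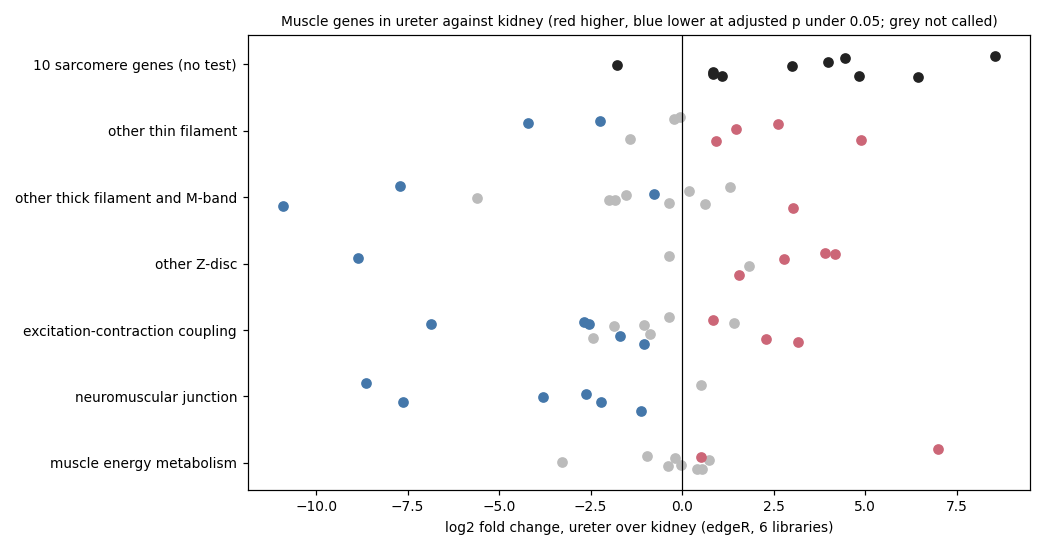
Log2 fold change of ureter over kidney from edgeR (horizontal axis) of each tested gene in 6 lists of muscle genes and of the 10 sarcomere genes (vertical axis, scattered within each row to separate the points). Red points were called higher and blue points lower at an adjusted p under 0.05, grey points were not called, and the 10 sarcomere genes are black because no test applies to them. The neuromuscular junction row holds 6 blue points and no red one.

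Many defining markers of skeletal muscle fibres and their precursors were at or near 0 in ureter, and others were present. Myod1, Myf5 and Pax7, which specify the muscle lineage, were at 0 in all 6 libraries, and Myog, the regulator of fusion and differentiation, had 6 counts in WT ureter and 0 in the ureter library labelled KO. The acetylcholine receptor subunits Chrna1, Chrnd and Chrng, the kinase Musk, the calcium channel subunits Cacna1s and Cacng1, the Z-disc protein Tcap and the ubiquitin ligase Trim63 were at 0 in both ureter libraries, and Ckmt2 and Cox6a2 were at 0 in all libraries. In the kidney libraries Trim63 had 191 to 320 counts, Tcap 26 to 101 and Chrnd 34 to 69. Chrna1, Chrng, Musk, Cacna1s and Cacng1 had 0 to 52 counts in kidney. Other genes of these lists were counted in WT ureter and in the ureter library labelled KO. The receptor subunit Chrnb1 had 415 and 176 counts there and was called lower in ureter than in kidney, and Chrne had 41 and 0. The calcium pump Atp2a1 had 84 and 16 counts, the release channel Ryr1 31 and 7, the channel subunit Cacnb1 726 and 292, Casq1 1273 and 909, and Dok7 46 and 113. The label of the 10 genes as skeletal muscle therefore rested on the sarcomere genes picked and not on the lineage regulators. Which cell type made the RNA of the 10 genes was not tested. Their summed TPM was 306 in WT ureter, 156 in the ureter library labelled KO and 22.6 to 24.1 in kidney. Ckm, Acta1 and Tnni2 had 109, 72.5 and 71.5 TPM in WT ureter, where the cardiac genes described next summed to 675. In the ureter library labelled KO, Tnni2 had 30.8 TPM and Acta1 25.7.

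Markers of other cell types went in both directions between the ureter libraries. Of the 14 cardiac genes, 10 could be compared between the ureter libraries, of which 7 were lower and 3 higher in the one labelled KO, with a median log2 ratio of -0.58 and summed TPM of 334 against 675 in WT ureter and 19.7 to 24.0 in kidney. Actc1, the cardiac actin, had 10430 counts in WT ureter and 1480 in the ureter library labelled KO, and Tnnt2, the cardiac troponin T, 13014 and 5303. The cardiac markers Nppa and Nkx2-5 were at 0 in all libraries, and Myl2 had 34 and 0. The 16 smooth muscle genes had a median log2 ratio of -0.26, the 12 urothelial genes 0.31, the 11 brown fat genes compared 0.0031 and the 10 tendon and cartilage genes -0.33. The brown fat list held genes that went both ways, with 3 over 2-fold higher and 1 over 2-fold lower in the ureter library labelled KO. The gene over 2-fold lower was Cox8b, at -1.08, and the median was the value of Cox7a1. Both of these genes also stood in the metabolism list of the skeletal muscle genes above. The fat cell hormone gene Adipoq had 18 counts in WT ureter and 170 in the library labelled KO, a log2 ratio of 2.77, Plin1 had 0 and 35, and Fabp4 had 14122 and 16322. The 3 adrenal cortex genes compared had a median of 0.60, and 8 of the 12 kidney tubule and podocyte genes were at 0 in both ureter libraries. The part of these cell types, and of the larger Rn45s share, in the ureter ratios was not tested.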

How the data were processed

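Total RNA from PN1 kidney and ureter was extracted with TRIzol, and libraries were made with the TruSeq Stranded mRNA kit and sequenced on a HiSeq2500. The methods of the study name Cutadapt, STAR, Cufflinks and GRCm39, while the submitters' processing notes list FastQC 0.11.7, Trimmomatic 0.38, HISAT2 2.1.0, StringTie 1.3.4b and R 3.6.1 with the build mm10. The strand setting of the counting was not given in the sources used here. The sample titles call the ureter libraries kidney while the tissue label says ureter, and the tissue label was used. The protocol text in the labels also names a tissue other than kidney and ureter.

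The deposited table holds estimated counts, given as whole numbers by the authors, and FPKM and TPM, which the authors normalized to length and depth. A single table covers the 6 libraries, and FPKM and TPM were used as deposited. A test meant for read counts was thus applied to estimates.

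In kidney, the genotypes were compared by the quasi-likelihood test of edgeR 4.0.16 after TMM scaling and the filterByExpr filter (2 residual degrees of freedom), with Benjamini-Hochberg adjustment over all genes. Ureter against kidney used all 6 libraries with genotype beside tissue (3 residual degrees of freedom). Standard errors were approximated as the size of the log2 fold change over the root of its F statistic. The ureter libraries were compared by log2(CPM + 0.5) with TMM factors for that pair, where the higher library had 10 counts or more, and a bound used 3 counts. CPM between tissues used TMM factors over all 6 libraries. DESeq2 1.42.0, limma 3.58.1 on log2(FPKM + 1), no filter, other scalings and pseudocounts, a replicate block and leaving out each library were alternatives. Intervals have a confidence level of 95% and cover counting error only. A floor of 3 counts was 0.0421 to 0.101 CPM.

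The named genes were the 10 genes, those of the lists, Ahnak, Rn45s, and the 10 genes most like them over the 6 libraries, of which 1 is not reported here. The genes and lists were chosen with earlier results of these data known. The scripts were tested on simulated data. Gene positions came from GENCODE for GRCm38 and promoters from RefSeq for GRCm38.p6.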

Additional observations from a re-analysis of the deposited data

Results flagged for a closer look

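Ckm moved in opposite directions in the tissues. Its log2 ratio of the library labelled KO over WT was -0.22 in ureter, with 1 library per genotype, while both KO kidneys lay above both WT kidneys (log2 fold change 1.80, SE 0.863). The difference between the tissues was not tested, and the kidney counts were 7 to 26. No group held 4 or more libraries, so no library was examined for standing apart.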

How the results depend on the processing

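All 10 genes were lower in the ureter library labelled KO under each of the 5 scalings run, and 6 to 8 of them were over 2-fold lower. Low genes moved most: on log2(TPM + 0.5) Neb went to -0.51 and on log2(FPKM + 0.5) to -0.30, where the constant is larger than its level. With a pseudocount of 0.1 CPM, 23 of the other skeletal muscle genes were over 2-fold lower and 2 over 2-fold higher, since a smaller constant lets low genes move further. Without Myh7 the developmental share was 100% in both ureter libraries. In kidney, the count of the 10 genes called was 0 under each alternative run, with a range of 0 to 0 when 1 library was left out. The log2 fold change of Acta1 became 0.13 with the replicate block and 0.066 with the crossed replicate block. Leaving out each kidney library gave -1.71 to 2.59 for Acta1, 1.54 to 2.03 for Ckm, -0.56 to 0.40 for Myl1, -0.038 to 0.37 for Tnnt3, -0.79 to 0.31 for Tnni2, -0.34 to 0.38 for Neb, -0.085 to 0.54 for Actn3 and -0.82 to 0.17 for Myoz1. These uncalled values changed sign, except for Ckm, and the cause was not tested. In ureter against kidney, leaving out each library gave 11 to 16 of the other skeletal muscle genes higher and 13 to 23 lower. Samples with the same number in the kidney groups tended to deviate in opposite directions (r = -0.26 over 14611 genes). With 2 libraries per genotype, this value cannot decide whether the numbers pair the samples. Over all genes, the test without the block called 2 genes, the replicate block 0 and the crossed replicate block, chosen after the data were seen, 1, while limma called 0 and DESeq2 called 19 lower and 25 higher. Leaving out 1 kidney library gave 2 to 63 genes lower and 1 to 24 higher, with the most lower without KO kidney 2. Depth limits Myh3, Myh8, Myl1 and Neb, with 10 to 28 counts in the ureter library labelled KO.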

Other observations

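The 10 genes outside the list whose log2(CPM + 0.5) most resembled the mean standardized level of the sarcomere genes over the 6 libraries, among 13343 genes with at least 100 counts in WT ureter, included Hk3 (Pearson r = 0.9995), Mei1, Adcy2, Fbxw27, Scrt1, Pxmp4, Vav2, Snhg11 and Il17b (r = 0.989). The libraries share their totals and the high point of WT ureter, so these values are a description. Mei1 had 170 counts in WT ureter, 19 in the ureter library labelled KO and 0 to 6 in kidney, and Fbxw27 172, 9 and 0 to 5. Hk3, a hexokinase, had 228 counts in WT ureter, 62 in the ureter library labelled KO and 81 to 94 in kidney. Snhg11, a noncoding RNA host gene, had 4933, 843 and 702 to 911.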
